A study of Mus musculus with 42 samples.

Results

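The genes described here are the 9 measured members of the Myc, Max and Mxd network: Myc, Mycn, Max, Mxd1, Mxi1, Mxd3, Mxd4, Mnt and Mga. They were chosen by symbol from the 24466 genes listed in the RNA-seq counts, and all 9 were among the 14836 genes that passed the filter on low counts. RNA was sequenced from iPax7 cells, which are myogenic precursors made from mouse embryonic stem cells that carry a Pax7 transgene switched on by doxycycline (Dox). The +Dox group (3 libraries) was grown with 0.75 µg/ml Dox and basic FGF, and the -Dox group (2 libraries) was collected 3 days after Dox was removed, still with FGF. The third group (3 libraries) was satellite cells, the Pax7-expressing stem cells of adult muscle, sorted on the fluorescence of a Pax7-ZsGreen reporter mouse and not cultured. Peak lists from the same series were also read at the members' genes. They cover open chromatin (ATAC-seq) in iPax7 cells with Dox and 12 h, 24 h and 3 days after its removal. Open chromatin was also listed in myotubes from iPax7 cells, in satellite cells and in C2C12 cells, an established mouse myoblast line. The C2C12 lists were of myoblasts, of myotubes, and of myoblast lines made to express flag-tagged Pax7 or a flag control. Histone marks were listed in iPax7 cells and in these flag lines, and Pax7 binding in iPax7 cells.

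Myc and Mycn are transcription factors that bind DNA only as a pair with Max. The pair recognises the E-box CACGTG and recruits histone acetyltransferases to genes of ribosome production, metabolism and cell growth. Mxd1, Mxi1, Mxd3, Mxd4, Mnt and Mga also pair with Max and bind the same sequence, but most of them bring the Sin3 and histone deacetylase corepressors, and Mga belongs to a Polycomb complex. Which partner Max holds is therefore thought to set the activity of shared targets. In muscle, Myc family genes are known for high levels in dividing myoblasts, and Mxd genes for expression in cells that leave the cycle.

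The libraries held between 39010958 and 54674619 counts on genes, and values are given below as normalized counts, which are counts scaled to library sizes corrected by the TMM method. Pax7 averaged 12833 normalized counts in +Dox, 245.1 in -Dox and 5962 in satellite cells, so the induced gene followed the labels. Myog, which marks the start of muscle differentiation, averaged 4150, 174963 and 2452 in the same order. The 9 satellite cell markers summed to 704725 to 1060333 normalized counts in satellite cells, 187339 to 266042 in +Dox and 52075 to 55511 in -Dox. The satellite cells differed from iPax7 cells in source, sorting and culture, and these cannot be told apart. Reads that the counting gave to no gene made up 25.1% to 32.4% of the satellite libraries and 9.19% to 9.93% of the iPax7 libraries, mostly through reads that aligned to several places, and their part in the satellite values was not tested. The satellite libraries also held summed markers of endothelium at 14439 to 21831 normalized counts and of blood cells at 11095 to 27552, against at most 167.6 and 118.2 in any iPax7 library. All 6 endothelial markers, all 5 blood markers tested, 5 of 6 fibroblast markers and all 4 Schwann cell markers were called higher in satellite cells than in +Dox. The endothelial marker Cdh5 and the blood markers Ptprc, Cd52 and Itgam were at 0 in every iPax7 library. The part of other cell types in the satellite values given below was not tested. In such bulk libraries fewer cells of a type and less RNA per cell cannot be told apart. Nothing in the labels says that libraries of a group came from separate cultures or animals, so p-values measure the spread between libraries.

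After Dox withdrawal the members called were the activators Mycn and Myc, and both were lower. The Myc call lay close to the threshold and was lost when any of the +Dox libraries was left out. Mycn fell 41.1-fold and Myc fell 1.86-fold, and no member was called higher. These 2 of 9 members compare with 7.70% of all genes called in this comparison, 3.04% lower and 4.66% higher, by edgeR's quasi-likelihood test with a Benjamini-Hochberg adjusted p under 0.05. Of the 0 members called higher, Mxd1 came nearest with an unadjusted p of 0.0658 from edgeR, and DESeq2 did not call it. The libraries did not overlap between conditions for 7 of 9 members (Myc, Mycn, Max, Mxd1, Mxi1, Mxd3 and Mxd4), against 45.3% of all genes. The median log2 fold change of the 9 members was -0.79, and that of all genes tested was 0.

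Against satellite cells, the +Dox cells were called lower in Myc and Mxd1 RNA and higher in Mxd3 RNA. The Mxd3 call lay close to the threshold and was lost when any of the +Dox libraries was left out. Myc was 19.7-fold lower, Mxd1 was 8.55-fold lower and Mxd3 was 4.78-fold higher in +Dox. This is 3 of 9 members called, beside 44.9% of all genes called in the same comparison, and 4 of 9 members without overlap beside 56.5% of all genes. The members' median log2 fold change was -0.46, with -0.17 for all genes. Against satellite cells, the -Dox cells were called lower in Myc, Mycn, Max, Mxd1 and Mxi1 RNA. Of these calls, that of Max was lost in 7 of the 8 fits that left out a library, all but the fit without satellite replicate 1. That of Mxd1 was lost without either -Dox library or satellite replicate 1, and that of Mxi1 without -Dox replicate 2. These 5 of 9 members stood beside 39.0% of all genes called and 20.9% called lower, and 6 of 9 members without overlap stood beside 64.3% of all genes. The members' median was -1.25 in this comparison, with -0.23 for all genes. The 3 comparisons share libraries, so their values are given side by side and not as independent evidence.

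**Figure D1:**
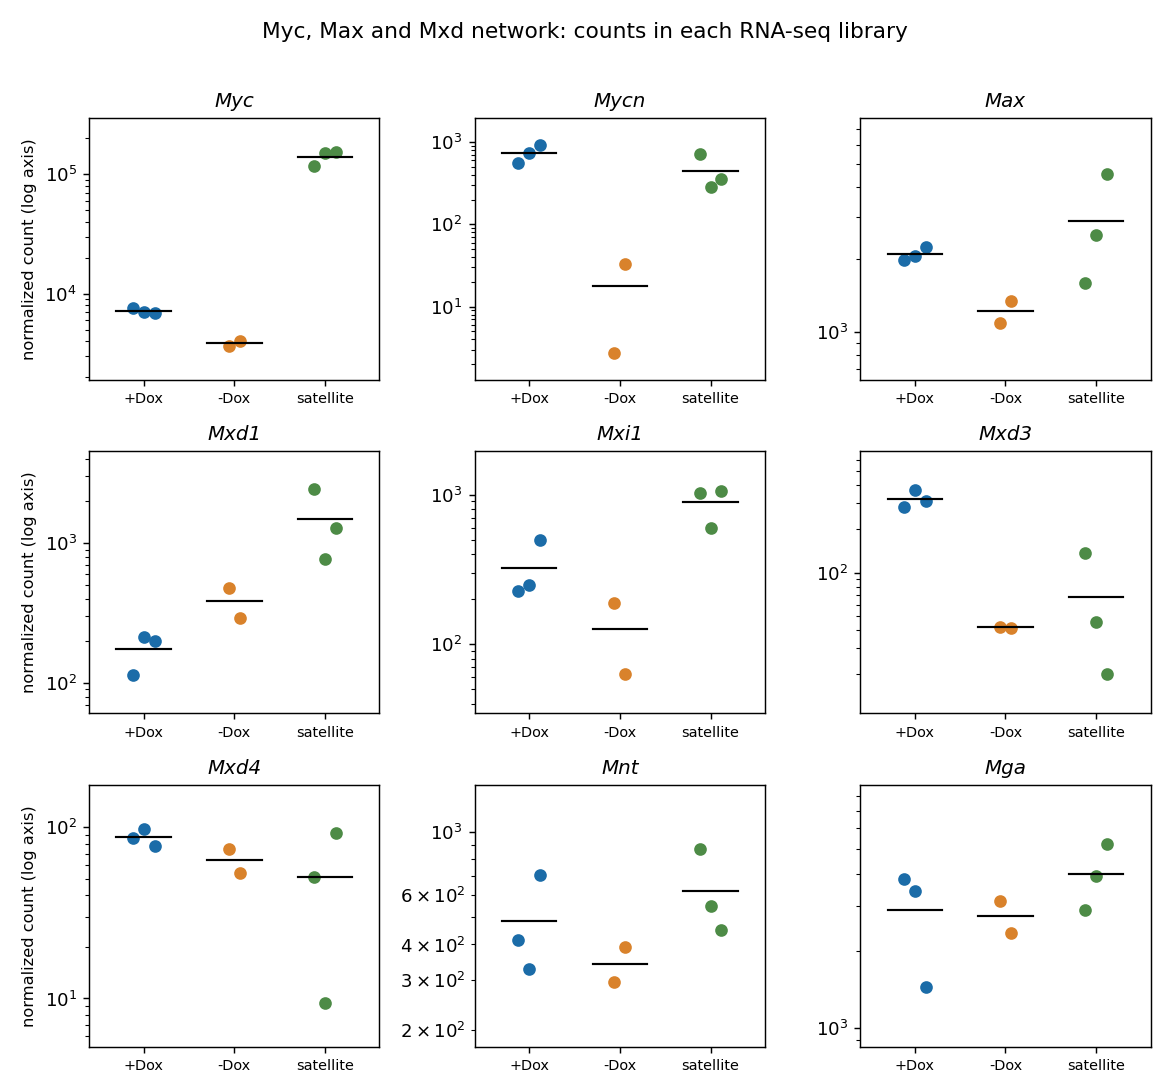
Normalized counts of each of the 9 members in each RNA-seq library, on a log axis, by group (+Dox n = 3, -Dox n = 2, satellite cells n = 3). Points are libraries and bars are group means. Myc lies between 118016 and 154469 in satellite cells, above every iPax7 library, and Mycn lies at 2.757 and 33.23 in -Dox, below every other library.

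Myc, the proto-oncogene that gives the network its name, lies on chromosome 15 from 61816946 to 61821929 (NCBIM37, plus strand). It had 7531, 6962 and 6918 normalized counts in the +Dox libraries. It had 3672 and 4021 in the -Dox libraries. In satellite cells it had 118016, 149572 and 154469. The 3 groups did not overlap, in the order satellite cells, +Dox, -Dox. As a share of all counts on genes, Myc took 0.0158% to 0.0191% in +Dox, 0.00757% to 0.00852% in -Dox and 0.230% to 0.284% in satellite cells. The log2 fold change of -Dox against +Dox was -0.89 (SE 0.23, adjusted p = 0.0477 from edgeR). This call lay close to the threshold. It was lost when any 1 of the 5 iPax7 libraries or satellite replicate 2 was left out, with log2 fold changes of -0.95 to -0.83 over all 8 such fits and adjusted p from 0.0171 to 0.363 in edgeR.

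Against satellite cells the log2 fold change of Myc was -4.30 in +Dox (SE 0.23, adjusted p = 4.89e-06 from edgeR) and -5.19 in -Dox (SE 0.29, adjusted p = 9.01e-06). Both were called in 15 of 15 alternatives. Myc is itself a gene of the rapid response to stimulation and injury, and the list of 11 other immediate early genes moved in the same direction. All 11 were called lower in +Dox and in -Dox than in satellite cells, beside 25.1% and 20.9% of all genes. The medians of the list were -6.61 and -7.33 on the log2 scale, and Fosb, a subunit of AP-1, had -12.33 in +Dox against satellite cells. Their summed level was 8862 to 12607 normalized counts in +Dox, 13565 to 14390 in -Dox and 682852 to 1545995 in satellite cells. Sorting and dissociation were not measured, and their part in the Myc level was not tested.

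Mycn, the Myc paralogue best known from embryonic and neural tissue, lies on chromosome 12 from 12942902 to 12948720 (NCBIM37, minus strand). It had 559.6, 745.7 and 927 normalized counts in +Dox and 714.8, 288.2 and 352.1 in satellite cells. In -Dox it had 2.757 and 33.23, from 3 and 36 reads. Both -Dox libraries lay below all others, while +Dox and satellite cells overlapped. The log2 fold change was -5.36 for -Dox against +Dox (SE 1.04, adjusted p = 0.0136 from edgeR). It was -4.64 for -Dox against satellite cells (SE 1.01, adjusted p = 0.00591), which is 24.9-fold lower. Both were called in 15 of 15 alternatives. Their size depended on the -Dox library kept, from -8.01 without -Dox replicate 2 to -4.48 without -Dox replicate 1 against +Dox, and from -7.24 to -3.76 against satellite cells. For +Dox against satellite cells it was 0.72 (SE 0.72, adjusted p = 0.441).

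The upstream sequence of Mycn is shown because it is the member that fell most and because the peak lists hold histone acetylation at its start in +Dox and not in -Dox. The acetylation of Mxd3 and Mxi1 had the same pattern. The capitals mark the 8-base sequences TTTGGCGC and TTTCGCGC, read on both strands, which are forms of the site of E2F factors. They were searched in the RefSeq promoter window (GRCm38.p6, 250 bases before to 50 after the start). The first 172 bases of that window are printed, located by exact match in NCBIM37 at chr12:12948721-12948892 (minus strand).
Mycn promoter: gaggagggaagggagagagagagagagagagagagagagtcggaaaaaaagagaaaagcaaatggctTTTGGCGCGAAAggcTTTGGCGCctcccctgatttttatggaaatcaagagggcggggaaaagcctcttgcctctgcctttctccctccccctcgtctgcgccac
TTTGGCGC occurred at -183 to -176 and at -168 to -161 from the RefSeq start, whose first base counts as 0, and TTTCGCGC overlapped the first of them at -179 to -172. Of 32851 promoter windows of the same length, 0.514% hold TTTGGCGC and 0.323% hold TTTCGCGC. These positions lay inside an ATAC peak in 6 of 10 lists. Neither sequence was found in the window of Mxd3 or in the 3 windows of Mxi1. A match describes the letters and not the binding of a factor.

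Max, the shared partner of the other members, lies on chromosome 12 from 78038256 to 78063235 (minus strand). It had 1976, 2067 and 2246 normalized counts in +Dox and 1083 and 1341 in -Dox. Satellite cells had 1589, 2515 and 4520, the widest spread of the groups. The -Dox libraries lay below all others, and +Dox lay within the range of satellite cells. The log2 fold change was -0.79 for -Dox against +Dox (SE 0.42, adjusted p = 0.328 from edgeR). It was -1.25 for -Dox against satellite cells (SE 0.43, adjusted p = 0.0455), 2.37-fold lower. This call was lost without any 1 of the 3 +Dox libraries, either -Dox library or satellite replicates 2 or 3, with log2 fold changes of -1.54 to -0.76 and adjusted p from 0.00927 to 0.229 over all 8 such fits in edgeR. For +Dox against satellite cells the value was -0.46 (SE 0.37, adjusted p = 0.343), and it turned to 0.03 without satellite replicate 3.

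Mxd1, the first described Mxd repressor and a gene known to rise in differentiating cells, lies on chromosome 6 from 86597038 to 86619153 (minus strand). It had 113.4, 211.8 and 200.3 normalized counts in +Dox, 475.1 and 291.7 in -Dox, and 2434, 776.1 and 1285 in satellite cells. The groups did not overlap, and Mxd1 was the member whose order placed -Dox above +Dox. The log2 fold change of -Dox against +Dox was 1.13 (SE 0.54, adjusted p = 0.269 from edgeR). Against satellite cells it was -3.10 in +Dox (SE 0.53, adjusted p = 0.00149), called in 15 of 15 alternatives. In -Dox it was -1.97 (SE 0.59, adjusted p = 0.0262), 3.91-fold lower. That call was lost without -Dox replicate 1 (-2.36), -Dox replicate 2 (-1.60) or satellite replicate 1 (-1.43).

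Mxi1, also called Mxd2, lies on chromosome 19 from 53384996 to 53450300 (plus strand). It had 226.1, 248.8 and 500.8 normalized counts in +Dox, 189.3 and 63.69 in -Dox, and 1029, 596.5 and 1058 in satellite cells. The libraries of the 3 groups did not overlap. The log2 fold change was -1.36 for -Dox against +Dox (SE 0.64, adjusted p = 0.259 from edgeR), with -2.35 without -Dox replicate 1 and -0.77 without -Dox replicate 2. Against satellite cells it was -2.82 in -Dox (SE 0.69, adjusted p = 0.0104), 7.07-fold lower. It was -3.81 without -Dox replicate 1, and the call was lost without -Dox replicate 2 (-2.19, adjusted p = 0.0904). In +Dox it was -1.46 (SE 0.56, adjusted p = 0.0566), and it was called without +Dox replicate 3 (-1.91, adjusted p = 0.0386).

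Mxd3, the Mxd gene known for expression in S phase of dividing progenitors, lies on chromosome 13 from 55426529 to 55431119 (minus strand). It had 284.7, 371 and 313.2 normalized counts in +Dox, 42.27 and 41.54 in -Dox, and 136.9, 45.57 and 19.78 in satellite cells. Every +Dox library lay above every other library, and the -Dox libraries lay within the range of satellite cells. The log2 fold change of -Dox against +Dox was -2.94 (SE 0.98, adjusted p = 0.107 from edgeR), and it was called in 4 of 15 alternatives. These were DESeq2, the fit limited to the iPax7 libraries, the replicate block and the edgeR fit without satellite replicate 1 (adjusted p = 0.0419). For +Dox against satellite cells the log2 fold change was 2.26 (SE 0.81, adjusted p = 0.0457 from edgeR). That call was lost in 7 of the 8 fits that left out a library, all but the fit without satellite replicate 1, with log2 fold changes of 1.82 to 3.30 and adjusted p from 0.00872 to 0.116 over the 8. For -Dox against satellite cells it was -0.68 (SE 0.89, adjusted p = 0.567), and it turned to 0.35 without satellite replicate 1.

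Mxd4, the remaining Mxd gene, lies on chromosome 5 from 34516536 to 34530369 (minus strand) and had the lowest level per kilobase of the 9 members in +Dox and in satellite cells. It had 86.38, 98.49 and 78.31 normalized counts in +Dox, 74.44 and 54.46 in -Dox, and 51.34, 9.383 and 92.32 in satellite cells. The satellite libraries overlapped both other groups. No comparison called Mxd4, with log2 fold changes of -0.44, 0.78 and 0.34 for -Dox against +Dox, +Dox against satellite cells and -Dox against satellite cells (SE 1.10, 0.98 and 1.08).

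Mnt, a broadly expressed repressor that is known to compete with Myc for Max in most cells, lies on chromosome 11 from 74644422 to 74659227 (plus strand). It had 414.6, 328 and 703.9 normalized counts in +Dox, 294.1 and 390.5 in -Dox, and 866.2, 545.6 and 448.4 in satellite cells. The +Dox libraries overlapped with both other groups, and no comparison called Mnt (log2 fold changes of -0.49, -0.36 and -0.86, SE 0.52, 0.46 and 0.53, in the same order of comparisons). Mga, the largest protein of the network and a scaffold of the Polycomb complex PRC1.6, lies on chromosome 2 from 119722964 to 119795317 (plus strand). It had 3814, 3429 and 1441 normalized counts in +Dox, 3115 and 2341 in -Dox, and 2871, 3909 and 5194 in satellite cells. Replicate 3 of +Dox was the lowest of all libraries. The exons of Mga span 15340 bases, and in that library the 640 tested genes over 10 kb lay at a median of -0.66 on the log2 scale from the mean of the other +Dox libraries, while genes up to 2 kb lay at 0.47. The part of this length trend in the Mga value was not tested. No comparison called Mga, with log2 fold changes of -0.09, -0.46 and -0.55 (SE 0.44, 0.39 and 0.44), and the first of these turned to 0.17, 0.07 and 0.12 without +Dox replicate 1, +Dox replicate 2 and -Dox replicate 2.

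**Figure D2:**
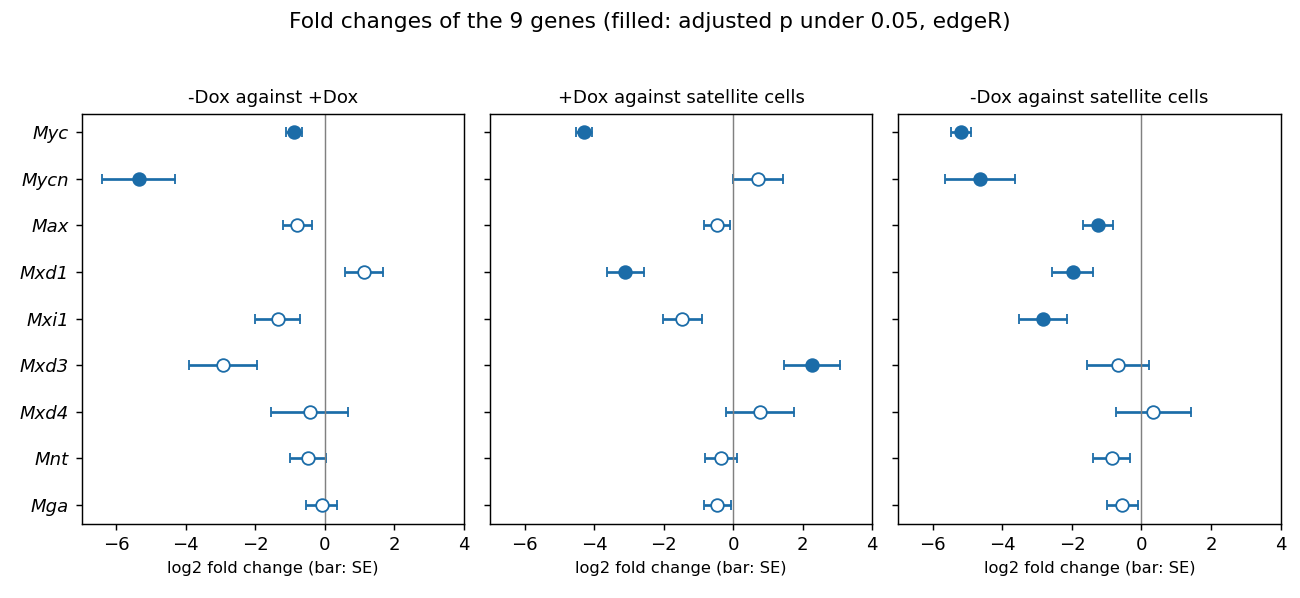
Log2 fold changes of the 9 members in the 3 comparisons, with bars of 1 standard error from edgeR, and filled points where the adjusted p was under 0.05. Filled points number 2, 3 and 5 of 9 for -Dox against +Dox, +Dox against satellite cells and -Dox against satellite cells.

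To compare levels between members, normalized counts were divided by the length of the exons in kilobases. Per kilobase, Myc had the highest level of the network in all 3 groups, at 2627 in +Dox, 1416 in -Dox and 51780 in satellite cells (means of normalized counts per kb). Max came next in each group, at 1045, 604.4 and 1434. In +Dox the order went on with Mycn (226), Mga (188.7), Mxd3 (155.2), Mnt (104.2), Mxi1 (57.88), Mxd1 (37.58) and Mxd4 (22.6). In -Dox Mga (177.8), Mxd1 (82.24) and Mnt (73.97) followed Max, and Mycn (5.466) stood last. In satellite cells Mxd1 (321.4) and Mga (260.2) followed Max, and Mxd4 (13.14) stood last. Neighbours in the lower part of each order differed by less than the spread of their libraries in several cases, for example Mycn and Mga in +Dox, whose counts overlap per kilobase.

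Expressed as shares of the network's summed level per kilobase, Myc and Max held similar parts of it in +Dox and -Dox. In +Dox Myc made up 58.8% ± 2.63 (SD, n = 3) and Max 23.4% ± 1.48. In -Dox Myc made up 58.5% ± 0.848 (SD, n = 2) and Max 24.9% ± 2.53. Mycn went from 5.06% ± 1.24 to 0.220% ± 0.260 and Mxd3 from 3.48% ± 0.512 to 0.834% ± 0.0517. Mxd1 went from 0.843% ± 0.263 to 3.43% ± 1.32. Mga went from 4.23% ± 1.87 to 7.40% ± 1.84. The libraries of the 2 conditions did not overlap for these 4 minor members, while those of Mxi1, Mxd4 and Mnt did. In satellite cells Myc took 95.4% ± 0.987 (SD, n = 3) and Max 2.56% ± 1.05. These shares carry no test, and with 3 against 2 libraries an exact permutation test could not give a p below 0.1.

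The ratio of activators (Myc and Mycn) to Max per kilobase was 2.52 to 2.99 in +Dox, 2.23 to 2.50 in -Dox and 25.3 to 55.1 in satellite cells. The iPax7 ranges met without overlap, and both lay below every satellite library. The summed Mxd genes relative to Max were 0.227 to 0.285 in +Dox, 0.161 to 0.324 in -Dox and 0.221 to 0.990 in satellite cells, so all 3 groups overlapped. Activators over Mxd genes were 9.34 to 13.2, 7.72 to 13.8 and 55.7 to 186 in that order of groups. RNA ratios do not give the amounts of protein or of the dimers.

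**Figure D3:**
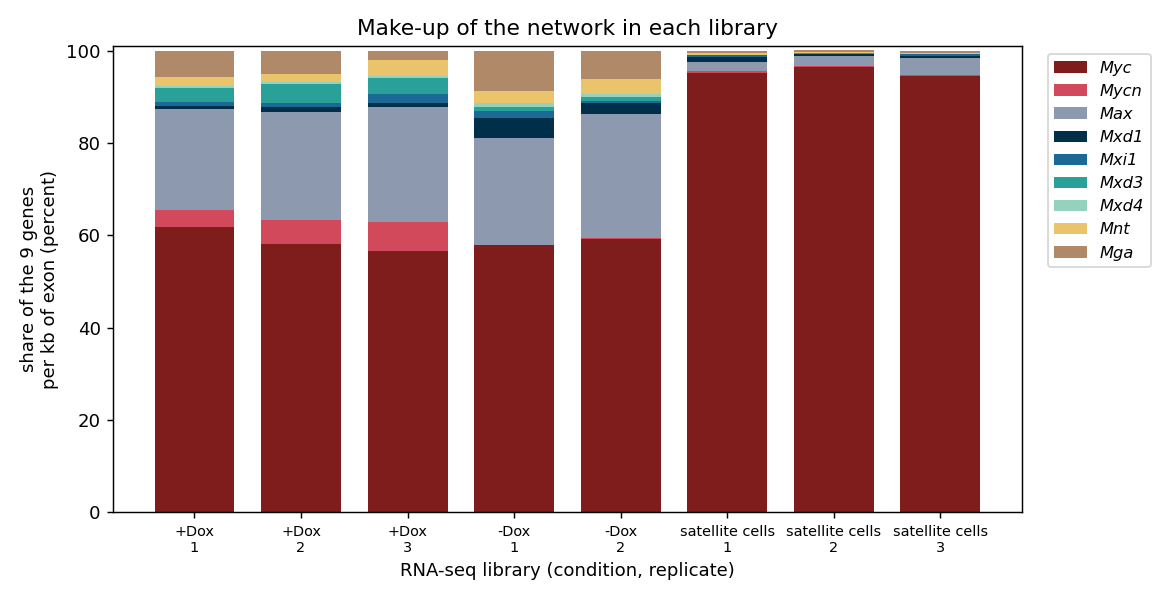
Share of each member in the summed level per kilobase of the 9 members, in percent, as 1 stacked bar for each of the 8 RNA-seq libraries. Myc takes a mean of 58.8% in +Dox, 58.5% in -Dox and 95.4% in satellite cells, and the mean share of Mycn is 5.06% in +Dox and 0.220% in -Dox.

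The chromatin of the members was open in nearly every list. The shares of genes given beside the counts, here and for the histone marks below, are over all protein-coding genes, expressed or not. All 9 members passed the filter on low RNA counts, and a share over such genes alone was not computed. An ATAC peak lay within 1000 bases of a start of all 9 members in iPax7 cells with Dox (63.2% of 22260 protein-coding genes), at 12 h (61.3%), 24 h (64.3%) and 3 days (65.5%) without Dox, in iPax7 myotubes (61.8%) and in satellite cells (58.6%). In C2C12 myoblasts and in their flag control line 8 of 9 had a peak (45.0% and 55.7% of genes), and Mycn was the exception in both. In C2C12 myoblasts that expressed flag-tagged Pax7 and in C2C12 myotubes all 9 had one (56.8% and 54.1%). Peaks at Mycn covered 7.15% of the window in the Pax7-flag line, with a highest fold enrichment of 2.89, which ranked at percentile 1.12 of that list. Replicates were merged into 1 list per condition before peak calling, so differences between lists have no replicate check.

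At Myc, the highest ATAC fold enrichment was 29.5 in +Dox (percentile 61.4 of the list), 12.7 at 12 h (percentile 47.2), 24.2 at 24 h (percentile 51.6) and 17.1 at 3 days (percentile 41.4). In satellite cells it was 32.4 (percentile 86.5), and peaks covered 100% of the window. At Mycn it was 10.2 in +Dox, 7.24 at 12 h, 10.7 at 24 h and 13.3 at 3 days, at percentiles of 25.0, 25.2, 25.1 and 33.1. The share of the Mycn window in peaks went from 28.7% in +Dox to 25.4% at 12 h, 61.8% at 24 h and 82.1% at 3 days, when its RNA was lower than in +Dox. Peaks covered 64.4 Mb of the genome in the +Dox list, 49.7 Mb at 12 h, 64.2 Mb at 24 h and 82.0 Mb at 3 days, so the lists themselves differ in extent. The highest fold was also lower at 12 h than in +Dox at every member, for example 39.4 against 85.5 at Max. In satellite cells Mycn peaks covered 85.8% of the window, with a highest fold of 17.0. Mxd4, Mxd1, Mnt and Max stood high in the +Dox list, with folds of 113, 111, 107 and 85.5, at percentiles of 98.6, 98.6, 98.3 and 95.7. Mxd3 had 16.4 in +Dox and 5.27 in satellite cells, at percentiles of 38.6 and 12.1.

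H3K27Ac, the acetylation of active promoters and enhancers, marked the starts of all 9 members in +Dox (48.1% of genes) and of 6 of 9 in -Dox (45.2%). The 3 members without it in -Dox were Mycn, Mxi1 and Mxd3. Of 10702 genes with the mark in +Dox, 1123 (10.5%) had none in -Dox, where the list was smaller (49.2 Mb against 73.1 Mb). H3K27Ac covered 65.6% of the Mycn window in +Dox and 69.0% of the Mxd3 window, and 0 in -Dox for both. At Mxi1 it covered 7.11% in +Dox. At Myc it covered 93.4% in +Dox and 84.3% in -Dox, while H3K4me1, a mark of enhancers and promoter flanks, went from 93.2% to 36.3%. That coverage of H3K4me1 was lower in -Dox at all 9 members, from 48.2% to 14.8% at Mxi1 and from 81.2% to 79.3% at Mycn. The share of all genes with lower coverage was not computed, so this does not set the members apart from other genes. The H3K4me1 lists covered 128 Mb in +Dox and 155 Mb in -Dox. H3K4me1 lay at all 9 starts in +Dox (61.7% of genes) and in -Dox (64.8%). H3K4me3, the mark of active and poised promoters, also lay at all 9 in +Dox (60.4%) and in -Dox (66.0%).

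H3K27me3, the Polycomb mark of repressed genes, lay at Mycn and at no other member, in +Dox (21.6% of genes), in -Dox (19.8%) and in both C2C12 lines (18.7% in the flag control and 21.3% with Pax7-flag). It covered 24.4% of the Mycn window in +Dox and 32.6% in -Dox, while H3K4me3 covered 93.1% and 85.1%. A start with H3K27me3 in both conditions and with H3K4me3 and H3K27Ac in +Dox was found at 458 genes (2.06%), and 166 of these (36.2%) had no H3K27Ac in -Dox, Mycn among them. In C2C12 myoblasts, H3K4me3 marked 7 of 9 members in the flag control line (45.3% of genes) and 7 of 9 with Pax7-flag (38.0%). Neither list held an H3K4me3 peak at Myc or Max, where H3K27Ac covered 100% of the window in both lines. These H3K4me3 lists covered 30.7 and 26.3 Mb, against 63.6 and 155 Mb in iPax7 cells with and without Dox. Whether the shorter lists missed peaks was not tested. H3K27Ac marked 8 of 9 members in both lines (53.7% and 54.8%), with none at Mycn. H3K4me1 marked 5 of 9 in the flag control line (49.4%) and 8 of 9 with Pax7-flag (63.5%). These counts were 1 of 9 in the flag control with windows of 500 bases, and 3 and 4 of 9 by peak centres, and the lists covered 127 and 235 Mb.

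**Figure D4:**
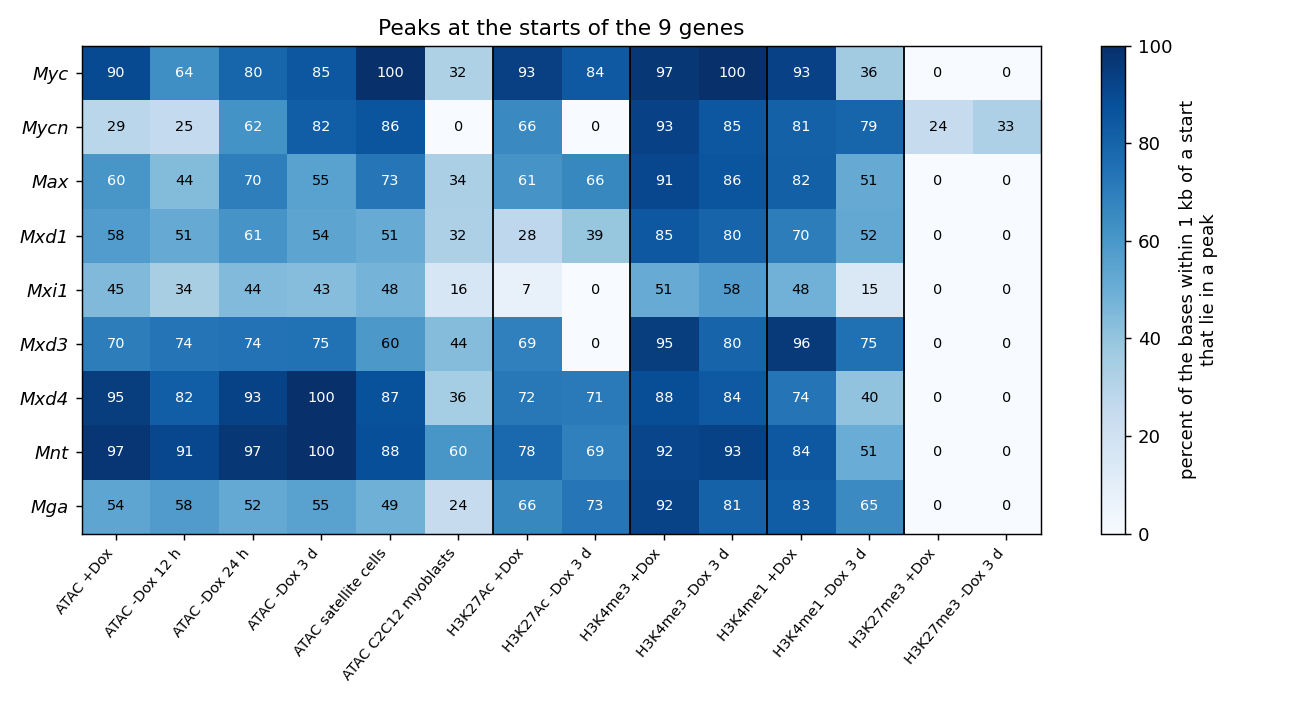
Percent of the bases within 1000 bases of a start that lie in a peak, as a colour and a rounded number, for the 9 members (rows) in lists of ATAC-seq and histone marks, 1 merged list per condition (columns). H3K27Ac lies at 9 of 9 members in +Dox and at 6 of 9 in -Dox, and H3K27me3 lies at Mycn alone among the members.

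Few genes of any kind had a Pax7 site at their start. With 9 members, the counts below do not set the network apart from all genes. None of the 2455 Pax7 sites lay within 1000 bases of a member's start, against 1.55% of genes, and 1 of 9 members had a site within 100 kb, against 18.4% of genes. That member was Mxi1 (96.1 kb), and Smndc1 was the gene whose start lay nearest to the site. The nearest site to Mycn lay 115 kb upstream, from 13062949 to 13063598 of chromosome 12, and the nearest to Max lay 117 kb upstream, from 78180149 to 78181079. Both had their member as the nearest protein-coding start. Of all genes, 20.4% and 20.8% had a site closer than these. The median distance of a gene to a site was 401 kb. Whether these sites act on Mycn or Max was not tested.

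The site upstream of Mycn carried ATAC and H3K27Ac peaks that differed with Dox. Its ATAC fold enrichment was 8.35 in +Dox (-log10 q of 54.7), no peak was listed at 12 h or 24 h, and a weaker peak of 3.05 was listed at 3 days (-log10 q of 6.62). In satellite cells it was 3.91 (-log10 q of 5.73), in iPax7 myotubes 3.68, and no C2C12 list held a peak. H3K27Ac was listed there in +Dox and not in -Dox, H3K4me1 and H3K4me3 in both and H3K27me3 in neither. The site upstream of Max kept its ATAC peak in iPax7 cells and was not listed in satellite cells. Its folds were 44.8 in +Dox, 15.8 at 12 h, 28.0 at 24 h, 17.8 at 3 days and 8.09 in iPax7 myotubes. The highest fold at the start of Max was also lower at 12 h than in +Dox, at 39.4 against 85.5. The site upstream of Max had H3K27Ac with and without Dox. The central 300 bases of the site upstream of Mycn, at chr12:13063124-13063423 (NCBIM37, plus strand), are shown because that site was listed with H3K27Ac in +Dox only. The capitals mark GTCACGC, a form of the paired domain motif.
Pax7 site upstream of Mycn: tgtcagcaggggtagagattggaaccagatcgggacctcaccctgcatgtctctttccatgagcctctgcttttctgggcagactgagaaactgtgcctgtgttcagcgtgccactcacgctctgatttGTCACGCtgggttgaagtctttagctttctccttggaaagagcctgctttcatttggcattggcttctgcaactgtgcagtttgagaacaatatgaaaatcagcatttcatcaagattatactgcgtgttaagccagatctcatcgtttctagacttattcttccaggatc
GTCACGC, read on both strands, lay in the central 300 bases of 79 of 2455 Pax7 sites (3.22%), and no test was made of what binds it.

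The promoters of some members hold the E-box CACGTG that the network itself binds. RefSeq promoter windows were matched for 8 of 9 members, in 10 windows. The E-box occurred in the windows of Max, Mxd4 and Mnt, 3 of 8 matched members, and in 7.15% of all 32851 windows. The stretches around it are shown with the E-box in capitals, at chr12:78063211-78063295 (minus strand) for Max, chr5:34530516-34530609 (minus strand) for Mxd4 and chr11:74644246-74644365 (plus strand) for Mnt in NCBIM37.
Max promoter: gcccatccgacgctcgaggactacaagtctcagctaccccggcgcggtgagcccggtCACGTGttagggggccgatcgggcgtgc
Mxd4 promoter: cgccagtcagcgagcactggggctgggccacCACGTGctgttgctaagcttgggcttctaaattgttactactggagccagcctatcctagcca
Mnt promoter: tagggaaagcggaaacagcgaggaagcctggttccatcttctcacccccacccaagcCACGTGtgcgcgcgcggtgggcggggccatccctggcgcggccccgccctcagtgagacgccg
The E-box of Max spans its RefSeq start, from -3 to 2, that of Mxd4 lies at -219 to -214 and that of Mnt at -123 to -118. Each lay inside an ATAC peak in 10 of 10 lists. None of these 3 genes was called in -Dox against +Dox, and no occupancy of the E-box was measured.

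The neighbouring genes of the extended network were measured in the same way. Mycl, the third Myc paralogue, had 11, 16 and 1 reads in +Dox, 169 and 244 in -Dox and 1, 2 and 3 in satellite cells. The -Dox libraries lay above all others, in the opposite order to Mycn. Its log2 fold change was 4.73 for -Dox against +Dox (SE 1.31, adjusted p = 0.0605 from edgeR) and 6.10 for -Dox against satellite cells (SE 1.41, adjusted p = 0.00803), and this call was lost without -Dox replicate 2. Mlxip, a glucose-responsive factor that pairs with Mlx, averaged 345.6 normalized counts in +Dox, 602 in -Dox and 4079 in satellite cells, and was called lower in +Dox (-3.56, adjusted p = 0.0027) and in -Dox (-2.76, adjusted p = 0.0196) than in satellite cells. Mlxipl, its paralogue known from liver and fat, had 4379, 1802 and 1364 normalized counts in satellite cells and was at or near 0 in every iPax7 library. The 2 genes of this list called lower in -Dox than in satellite cells, Mlxip and Mlxipl, became 1 without -Dox replicate 1, -Dox replicate 2 or satellite replicate 3. Of the 4 genes of this list 0 were called in -Dox against +Dox by edgeR, 1 was higher at an unadjusted p under 0.05 and DESeq2 called 1 higher.

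The list counts here and in the paragraphs on targets stand beside these shares of all genes. After Dox withdrawal 4.66% of all genes were called higher and 3.04% lower. Against satellite cells 19.8% were called higher and 25.1% lower in +Dox, and 18.1% and 20.9% in -Dox. Among the 13 Sin3 and Ncor corepressor genes that serve the Mxd proteins, 1 rose and 1 fell after Dox withdrawal. Sap30 had a log2 fold change of 3.00 and Sin3a, the scaffold of the complex, of -1.74, with a list median of -0.19. Without either of +Dox replicates 1 and 2, or either -Dox library, both calls were lost, and without satellite replicate 3 that of Sin3a was lost. Against satellite cells 1 was higher and 4 were lower in +Dox, among them Hdac2 (1.26) and Arid4a (-1.94), and the call of Hdac2 was lost without +Dox replicate 2 or 3. In -Dox against satellite cells 3 were higher and 7 lower, with 0 and 3 without -Dox replicate 1, 1 and 1 without -Dox replicate 2, and 4 lower without satellite replicate 2. Of the 14 Myc cofactors, which include the acetyltransferases and remodelers that Myc recruits, 0 were called after withdrawal by edgeR, 1 was lower at an unadjusted p under 0.05 and 1 by DESeq2, with a median of -0.34. Against satellite cells 4 were higher (Dmap1 2.06, Ruvbl2 1.51) and 6 lower (Crebbp -2.47, Ep400 -1.65) in +Dox. Of the 9 genes of Myc turnover, Usp28, a deubiquitinase that stabilises Myc, rose by 1.87 and Aurka, a kinase that stabilises Mycn, fell by 3.65 on the log2 scale after withdrawal. The call of Aurka was lost without either -Dox library, and that of Usp28 without any iPax7 library or satellite replicate 3. The 7 partners of Mga in PRC1.6 had 0 calls by edgeR after withdrawal, 2 lower at an unadjusted p under 0.05 and 0 by DESeq2, and 3 higher and 1 lower in +Dox against satellite cells (Cbx3 2.29, L3mbtl2 2.08, Rnf2 -1.15).

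Known Myc targets were followed in 2 lists. Of 35 targets in ribosome biogenesis, 0 were called after Dox withdrawal by edgeR, 5 were lower at an unadjusted p under 0.05 and DESeq2 called 1 lower. Their median log2 fold change was -0.41, with 8 of 35 above 0, beside 0 for all genes. In the fit limited to the iPax7 libraries 5 were called lower, and 3 were without satellite replicate 1. Against satellite cells 2 were higher (Wdr12 1.31, Npm1 1.04) and 8 lower (Ppan -1.96, Ddx21 -1.83) in +Dox, with a median of -0.49 beside -0.17 for all genes. The 8 became 18 without satellite replicate 1 and 5 without +Dox replicate 2, and the 2 became 7 without satellite replicate 2. In -Dox against satellite cells 13 were lower and 1 higher, with 5 lower without either -Dox library and 8 without satellite replicate 3.

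Of 31 targets in metabolism and translation 1 fell after withdrawal, Slc19a1, the folate carrier (log2 fold change -1.76, adjusted p = 0.011 from edgeR), and the list's median was -0.46. That count was 0 without +Dox replicate 2, -Dox replicate 1 or -Dox replicate 2, and 2 without satellite replicate 1 or 2. Against satellite cells 12 were higher (Dctpp1 3.24, Cdk4 2.53) and 5 lower (Hk2 -3.37, Pprc1 -2.16) in +Dox, with a median of 0.49. In -Dox against satellite cells 7 were higher and 6 lower, with 2 and 1 lower without -Dox replicates 1 and 2. The 8 proliferation genes are a separate list. All 8 were lower in -Dox than in +Dox (median -3.65, Mki67 -4.18, Bub1 -4.19), with 5 called without any 1 of the +Dox libraries, 2 without -Dox replicate 1 and 3 without -Dox replicate 2, and 7 were higher in +Dox than in satellite cells (median 4.84).

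**Figure D5:**
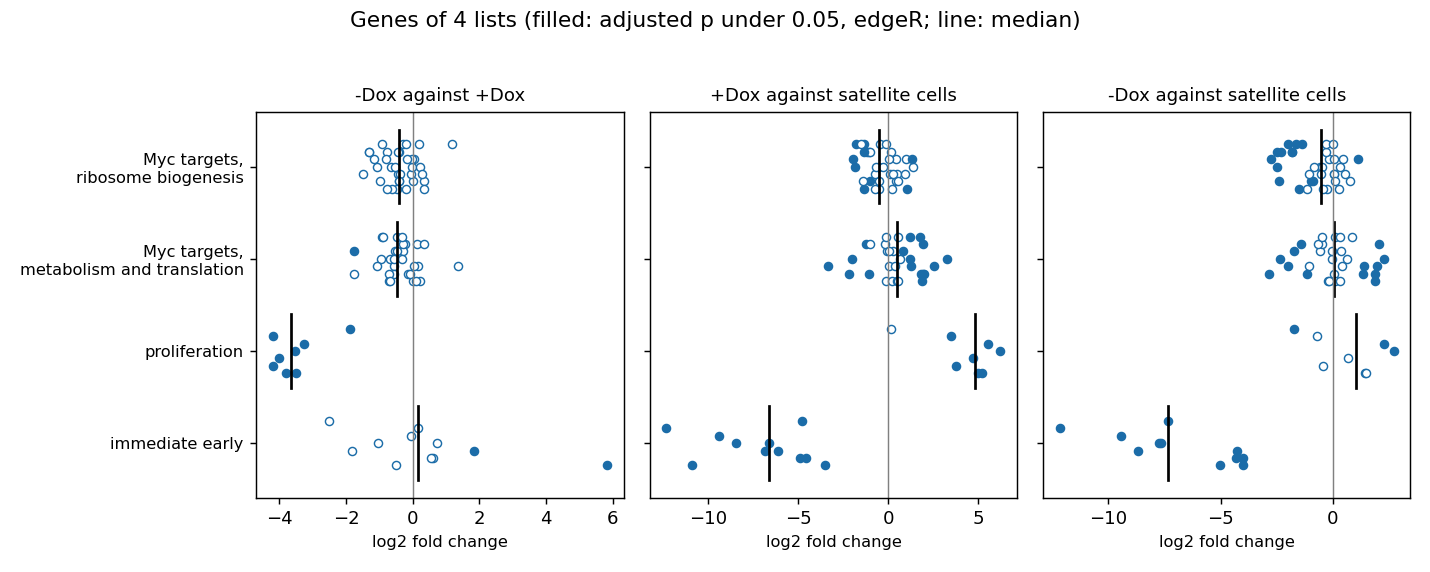
Log2 fold changes of the genes of each list in the 3 comparisons, 1 point per gene, filled where the adjusted p from edgeR was under 0.05, with the list's median as a line. For -Dox against +Dox the median is -0.41 for ribosome biogenesis targets, -0.46 for metabolism and translation targets and -3.65 for proliferation genes.

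The genes with patterns most like 4 of the members were found by Pearson's r over the 8 libraries on log2(normalized count + 1), among 7683 to 7684 other genes whose highest group averaged 1000 normalized counts or more. For Myc these were Ltbp4, Errfi1 and Atl2 (r = 0.997 each) and Thbs2 and Nfia (0.996). For Mycn they were Emc6 (0.959), Snx1 (0.958), Pax7 and Pgrmc1 (0.954 each) and Tspan4 (0.952). For Mxd3 they were Arhgap44 and Sgol2a (0.976 each), Idh2 (0.974), Nudt19 (0.970) and Sfxn1 (0.966). For Mxd4 they were Rnf169 (0.976), Amdhd2 (0.974), Ptgs2 (0.957), Slc19a2 (0.951) and Dzip3 (0.949). The points share the 3 groups and their libraries, so many genes reach such values. By Spearman's rho the top 5 shared 0, 0, 1 and 0 genes with these.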

How the data were processed

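For each of the 8 RNA-seq libraries the authors deposited unnormalized read counts by gene symbol, in the format of HTSeq. The submitters' processing notes list Trimmomatic 0.32, TopHat2 2.0 and HTSeq 0.6 without assigning steps, and strand and build for RNA are not given in the sources used here. Rows that name no gene were left out of library sizes. Counts were fitted in edgeR 4.0.16 (R 4.3.3) by the quasi-likelihood test, with filterByExpr, TMM factors, 1 mean per group over all 8 libraries, and Benjamini-Hochberg adjustment over 14836 genes (common dispersion 0.413). The script was run on simulated counts with large fold changes and a lower dispersion than in these data, so that run says nothing of small changes. The ATAC-seq peaks, called by the authors with MACS2 2.0.10 on merged replicates aligned to mm9 by Bowtie2 2.2.6, give a fold enrichment, a ratio, and a −log10 q-value as deposited. Histone regions came from merged replicates, and Pax7 sites were kept by the authors if found in 2 or more +Dox replicates and in no -Dox replicate. Starts and exon lengths came from the NCBIM37 annotation, promoter windows from RefSeq. A call means an adjusted p under 0.05. Alternatives were other scalings and filters, DESeq2 1.42.0, fits of only the groups compared, a replicate block and each library left out. Exon lengths were found for 90.9% of genes tested. The members and gene lists were chosen with earlier results of these data known. Named genes are all 9 members, the 2 genes with the largest change per direction in each described list (1 of them is not reported here), genes a statement turns on, the 5 most alike genes of 4 members, and Pax7 and Myog as checks.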

Additional observations from a re-analysis of the deposited data

How the results depend on the processing

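The 2 members called in -Dox against +Dox became 1 with the size factors of DESeq2, 1 with no filter on low counts and 4 with the replicate block, and ranged from 1 to 3 when each library was left out. The 5 called in -Dox against satellite cells ranged from 2 to 4, with 3 without -Dox replicate 1 and 2 without -Dox replicate 2. Of all genes, the 691 higher and 451 lower in -Dox against +Dox became 1121 and 1009 with DESeq2, 1128 and 1027 with the fit limited to those libraries and 2023 and 1994 with the block, and ranged from 363 to 823 and from 125 to 621 with each library left out. The 2681 higher and 3099 lower in -Dox against satellite cells ranged from 1633 to 2969 and from 1571 to 3352. Log2 fold changes that reversed, none of them called, were Mga in -Dox against +Dox (0.17, 0.07 and 0.12 without +Dox replicate 1, +Dox replicate 2 and -Dox replicate 2, lowest -0.41), Max in +Dox against satellite cells (0.03 without satellite replicate 3, lowest -0.75), and Mxd3 (0.35 without satellite replicate 1, lowest -1.12) and Mxd4 (-0.16 without satellite replicate 2, highest 1.08) in -Dox against satellite cells. The cause was not tested. Replicate numbers came from the files, and same-numbered libraries did not deviate together (r of -0.0398 to 0.0272 over the 3 comparisons), so the block shows only a shared number. It called 2 members in +Dox against satellite cells and 4 in -Dox against satellite cells. Of the ribosome targets it called 14 lower in -Dox against +Dox, and of the metabolism targets 11. Over the other scalings and filters the median of all genes ran from -0.42 to -0.09 in +Dox against satellite cells and from -0.50 to -0.17 in -Dox against satellite cells. For the peak lists, windows of 500 bases or peak centres moved the count of members by over 1.5 times only for H3K4me1 in C2C12 cells, from 5 members to 1 and 3 in the flag control and from 8 to 4 by centres with Pax7-flag. A stricter choice of ChIP regions was not run, since those lists hold no score. Depth limits Mycn in -Dox, which rests on 3 and 36 reads.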
